A study of Mus musculus with 18 samples.

Results

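The Toll-like receptors other than TLR4, the chaperone UNC93B1 and the TLR-related receptor CD180 were followed in peritoneal macrophages from mice of 3 Tlr4 genotypes, TLR4-WT, TLR4-K730R and TLR4-K810R. The 10 genes, Tlr1, Tlr2, Tlr3, Tlr6, Tlr7, Tlr8, Tlr9, Tlr13, Unc93b1 and Cd180, were chosen by name and matched to their Ensembl mouse genes, and they are 10 of the 13598 genes with a value in the series. All 10 passed the filter of at least 1 FPKM (fragments per kilobase, scaled to the library's fragments) in at least 3 of the 18 libraries, as did 9707 genes in all. The mice carry no transgene. In TLR4-K730R and TLR4-K810R mice, which were made by CRISPR editing on the C57BL/6 background per the study's methods, the named lysine of the intracellular TIR domain of TLR4 is changed to arginine in every cell, and the animals' age and the number of founders are not given in the sources used here. Per the study's methods, peritoneal macrophages were collected by lavage after thioglycolate medium was injected into the mice. Macrophages of each genotype were left as controls or treated with 100 ng/mL lipopolysaccharide (LPS), the ligand of TLR4, for 6 h, with 3 libraries in each of the 6 groups. The labels do not say whether libraries of a group came from separate mice, so the p-values measure only the spread between these libraries, which may be technical.

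Toll-like receptors are sensors of microbial molecules, and each pairs a leucine-rich ligand-binding part with a TIR domain that recruits adaptors such as MyD88. TLR1, TLR2 and TLR6 act at the cell surface, where TLR2 joins TLR1 or TLR6 to bind bacterial lipopeptides. TLR3, TLR7, TLR8, TLR9 and TLR13 act in endosomes and bind nucleic acids, and they need the membrane protein UNC93B1 to leave the endoplasmic reticulum, while CD180 is a surface relative of TLR4 that lacks a TIR domain and pairs with the product of Ly86.

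The values deposited by the authors are FPKM of transcript events, and for each library the first exons of a gene were summed, its last exons were summed, and the higher of these sums was taken as its level. Because FPKM is per length of transcript, levels can be compared between genes. An event with no row in a library was counted as 0, so a gene listed at 0 may still be expressed. No read counts are in the files and the depth is unknown. Differences were tested with limma on log2(FPKM + 1) over the 9707 genes, with Benjamini-Hochberg adjustment, and a gene was called at an adjusted p below 0.01. The median difference of all 9707 genes between LPS and control libraries on the log2 scale was -0.28 (TLR4-WT), -0.36 (TLR4-K730R) and -0.26 (TLR4-K810R), and median-of-ratios scaling moved it to -0.02, -0.04 and -0.04. Of the 8 listed macrophage markers 6 had values, at 7289 FPKM or more in sum in every library, with Adgre1 (F4/80) at 148 to 271 FPKM and Csf1r at 277 to 538 FPKM. T and NK cell markers, 5 of 7 with values, summed to 0.958 FPKM or less. The macrophage sum, most of it Lyz2 (5944 to 13291 FPKM), was 7289 to 10057 FPKM with LPS and 11633 FPKM or more without. Of its 6 genes 1, 1 and 2 were called higher and 4, 4 and 1 lower in TLR4-WT, TLR4-K730R and TLR4-K810R, with Fcgr1 higher in each. Of all tested genes 10.4%, 9.32% and 9.08% were called higher with LPS and 23.9%, 26.5% and 19.7% lower. The sum of 6 neutrophil markers was 182 to 248 FPKM with LPS and 33.1 to 63.6 FPKM without, most of it S100a8 (22.1 to 239 FPKM), with Ly6g at 0 in 13 libraries. Of 4 neutrophil markers tested S100a8 was called higher in each genotype and Retnlg lower in TLR4-WT. The sum of 4 dendritic cell markers was 3.03 to 5.76 FPKM with and 0.0888 to 1.96 FPKM without LPS. Of these Ccr7, the only one tested, reached 4.95 FPKM and was at 0 in 2 libraries, and Clec9a was at 0 in 16 libraries. The sum of 7 mesothelial and fibroblast markers was 69.9 to 186 FPKM in control TLR4-K810R and 16.7 to 30.8 FPKM in control TLR4-WT. Of 6 tested, 2 were called higher in control TLR4-K810R than in control TLR4-WT, beside 1.58% of all tested genes called. Against TLR4-WT, 1 of 4 tested neutrophil markers was called lower in control TLR4-K730R and 1 higher in TLR4-K810R with LPS. In these comparisons 0.268% and 0.134% of all tested genes were called. The part of these marker sums and calls in the results was not tested. The mutated gene itself, Tlr4, was at 9.31 to 14.2 FPKM in the 9 control libraries and at 4.18 to 5.72 FPKM in the 9 LPS libraries, which says nothing of the point mutations.

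In control TLR4-WT macrophages Unc93b1 was the most abundant of the 10 mRNAs, at 286, 244 and 255 FPKM in its 3 libraries. Tlr13, a receptor for bacterial ribosomal RNA, followed at 100.3, 124 and 86.8 FPKM, and was the most abundant of the 8 receptors with a TIR domain. Cd180 came next, at 64.6, 43.6 and 62.9 FPKM, and these upper levels did not overlap each other. Tlr2 (17.4 to 18.9 FPKM), Tlr8 (13.6 to 20.5 FPKM), Tlr7 (5.23 to 14.4 FPKM) and Tlr1 (5.35 to 7.46 FPKM) formed the middle, and each of them overlapped its neighbour in this order. Tlr9 was at 2.17 to 2.76 FPKM, below all Tlr1 libraries, and Tlr3 and Tlr6 were listed at 0 in some libraries and reached 1.90 and 2.41 FPKM. After LPS the order in TLR4-WT became Unc93b1, Cd180, Tlr2, Tlr13, Tlr7, Tlr8, Tlr3, Tlr1, Tlr6 and Tlr9, in which the 3 highest overlapped their neighbours, Tlr2 lay above Tlr13, and Tlr13 lay above Tlr7 in every library.

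**Figure D1:**
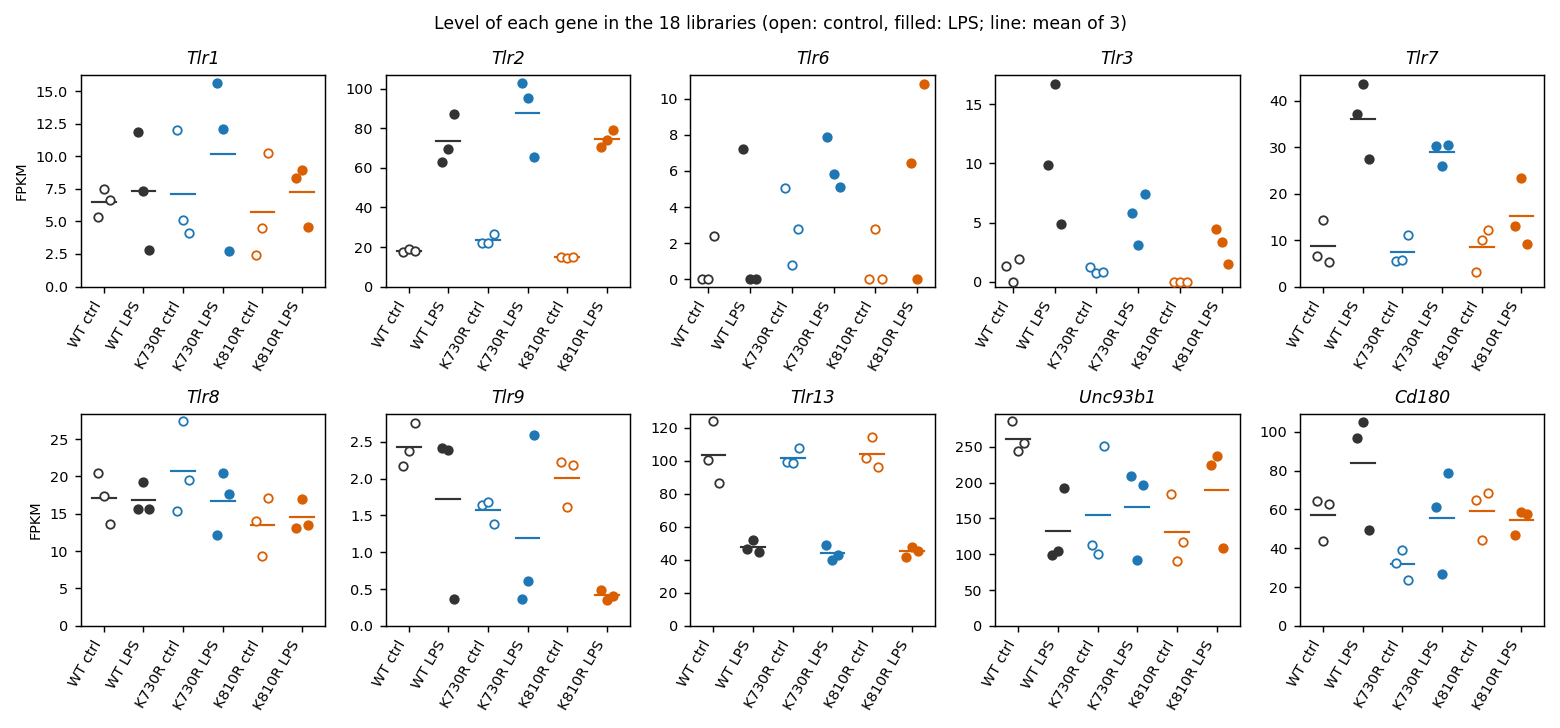
FPKM of each of the 10 genes in the 18 libraries, 1 panel per gene with its own linear axis, open circles for control and filled circles for LPS libraries, horizontal lines for the mean of 3 libraries (no mean for Tlr3 and Tlr6, which are listed at 0 in some libraries). The 9 LPS libraries lie above the 9 control libraries for Tlr2 (63.2 to 103 against 14.6 to 26.4 FPKM) and below them for Tlr13 (40.1 to 52.1 against 86.8 to 124 FPKM), while Unc93b1 ranges from 89.8 to 286 FPKM, with the 3 control TLR4-WT libraries (244 to 286 FPKM) above the TLR4-WT libraries with LPS and control and LPS libraries overlapping in both mutants.

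With LPS, 3 of the 10 genes were called higher in TLR4-WT macrophages (Tlr2, Tlr3 and Tlr7) and 1 lower (Tlr13), where 10.4% of all tested genes were called higher and 23.9% lower. In TLR4-K730R the counts were again 3 higher and 1 lower, of the same 4 genes, beside 9.32% and 26.5% of all tested genes. In TLR4-K810R 2 were called higher (Tlr2 and Tlr3) and 1 lower (Tlr13), beside 9.08% and 19.7%. The members' median difference was 0.21, 0.51 and 0.48 on the log2 scale in TLR4-WT, TLR4-K730R and TLR4-K810R, where that of all genes was the negative median given above. Under median-of-ratios scaling the shares over all genes were 15.4% higher and 14.2% lower for TLR4-WT, 15.3% higher and 13.5% lower for TLR4-K730R, and 12.3% higher and 11.7% lower for TLR4-K810R, and left each of these member calls in place. In bulk libraries fewer cells of a type and less RNA per cell cannot be told apart.

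**Figure D2:**
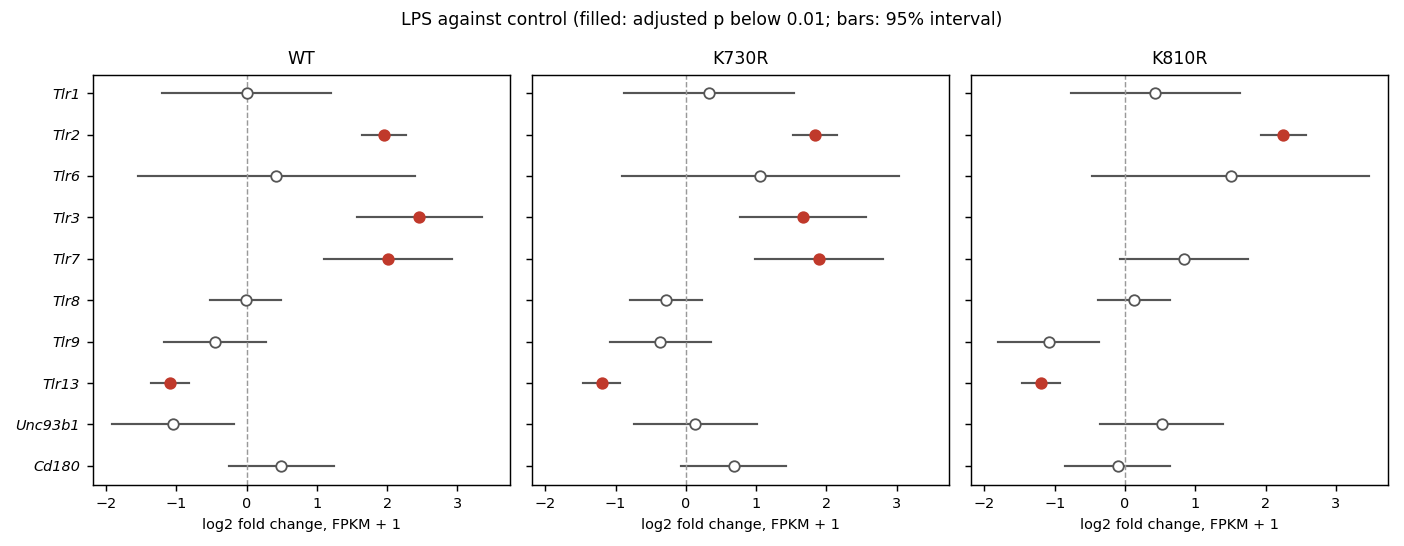
Log2 fold change of LPS against control libraries on the FPKM + 1 scale for each gene, 1 panel per genotype, with 95% intervals from limma (3 libraries per group) and filled circles for adjusted p below 0.01. Tlr2 (1.96, 1.84 and 2.25) lies on the right of 0 and Tlr13 (-1.09, -1.20 and -1.19) on the left in every genotype, and Tlr3 is not drawn for TLR4-K810R, where its control libraries are listed at 0.

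Among the surface receptors, Tlr2 (ENSMUSG00000027995), on the minus strand of chromosome 3 at chr3:83836272-83841767 of GRCm38, was the one called. TLR4-WT control libraries were at 17.4, 18.9 and 17.8 FPKM and LPS libraries at 63.2, 69.8 and 87.4 FPKM. In TLR4-K730R the values were 22.03, 22.1 and 26.4 FPKM against 103, 95.2 and 65.7 FPKM, and in TLR4-K810R 15.1, 14.6 and 14.8 FPKM against 70.4, 74.0 and 79.3 FPKM. Every LPS library lay above every control library of any genotype. The TLR4-WT mean went from 18.03 ± 0.734 to 73.5 ± 12.5 FPKM, and the others went from 23.5 ± 2.48 to 87.9 ± 19.6 FPKM in TLR4-K730R and from 14.8 ± 0.255 to 74.6 ± 4.49 FPKM in TLR4-K810R (SD, n = 3 each). On the log2(FPKM + 1) scale this was a rise of 1.96 (standard error 0.15, limma adjusted p = 3.27e-08), 1.84 (0.15, adjusted p = 6.55e-08) and 2.25 (0.15, adjusted p = 6.63e-09). The value of Tlr2 rests on its last exon, since no first exon of it on its own strand is listed.

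The promoter windows of Tlr2, Tlr3 and Tlr13, the genes called in all 3 genotypes, are shown because Tlr2 and Tlr3 were called higher and Tlr13 lower. They run from 250 bases before to 50 bases after the RefSeq start site in GRCm38.p6, 5′ to 3′ on the gene's strand, at chr3:83841559-83841858, chr8:45410331-45410630 and chrX:106143025-106143324, with matches to the searched motifs in capitals.
Tlr2: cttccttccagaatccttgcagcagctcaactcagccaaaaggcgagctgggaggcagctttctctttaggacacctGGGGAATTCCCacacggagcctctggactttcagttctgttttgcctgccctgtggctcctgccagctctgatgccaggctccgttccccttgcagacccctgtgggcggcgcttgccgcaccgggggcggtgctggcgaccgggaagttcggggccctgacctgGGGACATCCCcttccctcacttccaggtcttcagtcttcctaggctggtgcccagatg
Tlr3: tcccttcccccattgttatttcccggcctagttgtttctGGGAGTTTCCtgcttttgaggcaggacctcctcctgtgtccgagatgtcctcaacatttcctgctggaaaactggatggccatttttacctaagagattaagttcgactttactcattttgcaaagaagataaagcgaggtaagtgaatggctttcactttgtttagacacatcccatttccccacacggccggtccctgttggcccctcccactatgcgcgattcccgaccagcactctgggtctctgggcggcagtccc
Tlr13: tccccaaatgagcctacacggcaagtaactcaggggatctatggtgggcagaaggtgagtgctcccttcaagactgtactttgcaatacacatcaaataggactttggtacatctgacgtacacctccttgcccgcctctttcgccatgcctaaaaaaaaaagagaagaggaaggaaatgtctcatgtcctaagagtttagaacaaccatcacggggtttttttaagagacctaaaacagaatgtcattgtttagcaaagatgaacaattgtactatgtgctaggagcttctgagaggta
The motifs were the NF-κB consensus, the interferon-stimulated response element core GAAANNGAA, the AP-1 site TGANTCA and the PU.1 site GAGGAAGT, each on both strands. The NF-κB consensus matched the Tlr2 window at overlapping places that begin 173 and 172 bases before the start site and at a further place that begins 8 bases before it, and it matched the Tlr3 window once, 211 bases before the start site of the window, at chr8:45410582-45410591. That place lies inside the more upstream first exon of Tlr3, chr8:45410453-45410619, which was listed in all 9 LPS libraries, so for that start it is within the transcript. The Tlr2 match nearest the start site, at chr3:83841607-83841616, lies inside the annotated span of Tlr2 given above. For the start of that span it is within the gene, and no listed first exon shows which start was used. The Tlr13 window held none of the 4 motifs. Of all 32851 windows of this length, 8.46% held the NF-κB consensus, 8.56% the response element core, 7.81% the AP-1 site and 3.20% the PU.1 site. Of the 10 genes 8 had a window, with 11 windows in all, and the other matches were a PU.1 site in one of the Tlr1 windows, overlapping response element cores in one of the Tlr6 windows, 1 response element core in the Tlr8 window, and an AP-1 and a PU.1 site in the Tlr9 window. Tlr7 and Unc93b1 had no window. These matches describe the letters of the windows and no binding was measured.

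Tlr1 (ENSMUSG00000044827, chr5:64924679-64933563), whose product pairs with TLR2 for triacylated lipopeptides, was not called in any genotype. Its TLR4-WT libraries were at 5.35, 7.46 and 6.66 FPKM without and at 11.9, 7.32 and 2.83 FPKM with LPS, so the LPS libraries lay on both sides of the controls. The spread was as wide in TLR4-K730R with LPS (15.6, 12.1 and 2.74 FPKM) and in control TLR4-K810R (2.43, 4.46 and 10.2 FPKM). The log2 differences after LPS were 0.00 in TLR4-WT (95% interval -1.21 to 1.21), 0.33 in TLR4-K730R (-0.87 to 1.54) and 0.43 in TLR4-K810R (-0.77 to 1.64), with limma adjusted p of 0.999, 0.652 and 0.571. They were 0.29, 0.68 and 0.66 under median-of-ratios scaling, and each unscaled interval reaches past a 2-fold change. The standard deviation of log2(FPKM + 1) within groups was 0.78 for Tlr1, above that of 98.3% of the tested genes, whose median was 0.26.

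Tlr6 (ENSMUSG00000051498, chr5:64952031-64960097), which pairs with TLR2 for diacylated lipopeptides and lies beside Tlr1, was listed at 0 in 7 of the 18 libraries, 4 of them control and 3 LPS libraries. Its TLR4-WT libraries were at 0, 0 and 2.41 FPKM without and 7.21, 0 and 0 FPKM with LPS, and those of TLR4-K810R at 0, 2.80 and 0 FPKM and 6.41, 0 and 10.8 FPKM. In TLR4-K730R all 6 libraries had a value, 5.04, 0.783 and 2.80 FPKM without and 7.85, 5.84 and 5.13 FPKM with LPS. Libraries at 0 and above 5 FPKM thus stood side by side within a group, and no difference of Tlr6 was called (limma adjusted p = 0.737, 0.360 and 0.211 for LPS in TLR4-WT, TLR4-K730R and TLR4-K810R). Tlr1 and Tlr6 share sequence, with 454 of the 3332 different 50-base words of the annotated Tlr1 transcripts (13.6%) also in those of Tlr6, so the split of reads between both is uncertain.

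Tlr3 (ENSMUSG00000031639, chr8:45395665-45411080), which encodes the receptor for double-stranded RNA, was called higher after LPS in all 3 genotypes. TLR4-WT libraries were at 1.33, 0 and 1.90 FPKM without and 9.84, 16.7 and 4.87 FPKM with LPS. TLR4-K730R libraries were at 1.24, 0.779 and 0.854 FPKM without and 5.84, 3.11 and 7.37 FPKM with LPS, and TLR4-K810R libraries were listed at 0 in all 3 controls and at 4.47, 3.39 and 1.54 FPKM with LPS. The LPS libraries lay above the control libraries within each genotype, and the lowest LPS library of TLR4-K810R lay below the highest control library of TLR4-WT. The log2 rise was 2.46 in TLR4-WT (standard error 0.42, limma adjusted p = 0.000175) and 1.66 in TLR4-K730R (0.42, adjusted p = 0.00399), and in TLR4-K810R the adjusted p was 0.00136, with no fold given against controls listed at 0. These sizes depend on the pseudocount, and with 0.1 in place of 1 they were 3.83 and 2.33. The call in TLR4-K730R was then lost (limma adjusted p = 0.0308), as it was without control replicate 2 (0.0152) or 3 (0.0137) or LPS replicate 1 (0.0157) or 3 (0.0228). Of the 50-base words of Tlr3 5.30% also occur in Gm45542.

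Tlr7 (ENSMUSG00000044583, chrX:167304929-167330558), which encodes a receptor for single-stranded RNA, was called higher in TLR4-WT and TLR4-K730R. TLR4-WT libraries were at 6.60, 14.4 and 5.23 FPKM without and 37.1, 43.6 and 27.3 FPKM with LPS, and TLR4-K730R libraries at 5.43, 5.65 and 11.1 FPKM and 30.2, 26.0 and 30.5 FPKM. TLR4-K810R libraries were at 3.23, 9.93 and 12.2 FPKM without and 13.1, 23.4 and 9.20 FPKM with LPS, where both groups overlapped. The log2 rise was 2.02 (standard error 0.43, limma adjusted p = 0.00112) in TLR4-WT and 1.89 (0.43, adjusted p = 0.00177) in TLR4-K730R, and the difference in TLR4-K810R was 0.84 (95% interval -0.07 to 1.75, adjusted p = 0.132). The TLR4-K810R response differed from the TLR4-WT response by -1.18 (95% interval -2.46 to 0.11, limma adjusted p = 0.428), so a smaller response in TLR4-K810R was not established.

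Tlr8 (ENSMUSG00000040522, chrX:167242696-167264329), the neighbour of Tlr7 on the X chromosome and its close relative, lay between 9.40 and 27.5 FPKM in all 18 libraries. TLR4-WT libraries were at 20.5, 17.3 and 13.6 FPKM without and 15.6, 19.3 and 15.6 FPKM with LPS, which overlapped. Its log2 differences after LPS were -0.01 (95% interval -0.52 to 0.50), -0.29 (-0.80 to 0.22) and 0.13 (-0.38 to 0.64) in TLR4-WT, TLR4-K730R and TLR4-K810R, with limma adjusted p of 0.968, 0.340 and 0.697. The signs in TLR4-WT and TLR4-K730R were positive under median-of-ratios scaling (0.30 and 0.10). No 50-base word was shared between the annotated transcripts of Tlr7 or Tlr8 and those of another gene.

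Tlr9 (ENSMUSG00000045322, chr9:106222598-106226883), the receptor for unmethylated CpG DNA, was at 2.76 FPKM or less in every library. TLR4-WT libraries were at 2.17, 2.37 and 2.76 FPKM without and 2.42, 2.38 and 0.368 FPKM with LPS, and TLR4-K730R libraries at 1.65, 1.68 and 1.38 FPKM and 0.371, 0.614 and 2.59 FPKM. With LPS, 1 TLR4-WT library and 2 TLR4-K730R libraries lay below all controls of their genotype, and 1 TLR4-K730R library lay above them. In TLR4-K810R the 3 control libraries (2.23, 1.62 and 2.18 FPKM) all lay above the 3 LPS libraries (0.492, 0.347 and 0.399 FPKM), with a log2 difference of -1.09 (standard error 0.34) that missed the threshold (limma adjusted p = 0.0177), and of -2.04 with a pseudocount of 0.1 (0.0152). It passed with array weights (adjusted p = 0.00314) and with a fit of these groups alone (0.00254), and under median-of-ratios scaling the difference was -0.92 (0.0684). Listed B cell markers, another cell type that expresses Tlr9, moved in the same direction, and 7 of 9 had values. Their sum was 18.8 to 20.7 FPKM in control and 4.56 to 6.00 FPKM in LPS libraries of TLR4-K810R, but also 20.0 to 24.4 and 4.48 to 8.46 FPKM in TLR4-WT. Most of it was Cd22 (2.63 to 21.7 FPKM), with Ms4a1 at 0 in 14 libraries and at most 0.855 FPKM, and their part in the result was not tested. Plasmacytoid dendritic cell markers, 4 of 6 with values, summed to 0.830 to 3.89 FPKM, and Siglech had no value.

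Tlr13 (ENSMUSG00000033777, chrX:106143204-106160493) was called lower after LPS in every genotype. TLR4-WT libraries were at 100.3, 124 and 86.8 FPKM without and 46.5, 52.1 and 44.8 FPKM with LPS. In TLR4-K730R the values were 99.1, 98.8 and 108 FPKM against 48.7, 40.1 and 42.8 FPKM, and in TLR4-K810R 102, 115 and 96.4 FPKM against 42.0, 47.6 and 45.6 FPKM. No LPS library reached the lowest control library. The log2 differences were -1.09, -1.20 and -1.19 (standard error 0.13 each, limma adjusted p = 3.24e-06, 1.05e-06 and 1.42e-06), and with median-of-ratios scaling -0.76, -0.80 and -0.92. Its within-group standard deviation of 0.15 was the smallest of the 10 genes. Control levels were alike in means, at 104 ± 18.9, 102 ± 5.03 and 104 ± 9.38 FPKM (SD, n = 3 each), and the mutants' log2 differences from control TLR4-WT were -0.01 (95% interval -0.28 to 0.26) and 0.02 (-0.25 to 0.29).

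Unc93b1 (ENSMUSG00000036908, chr19:3935186-3949340), the chaperone of the endosomal receptors, was not called in any comparison, and its libraries fell into a lower range of 89.8 to 117 FPKM (8 libraries) and an upper range of 184 to 286 FPKM (10 libraries) with a 1.58-fold gap. TLR4-WT control libraries were all in the upper range, at 286, 244 and 255 FPKM, and TLR4-WT libraries with LPS were at 98.2, 105 and 193 FPKM. TLR4-K730R libraries were at 113, 100.4 and 251 FPKM without and 208, 92.4 and 197 FPKM with LPS, and TLR4-K810R libraries at 184, 89.8 and 117 FPKM without and 224, 237 and 109 FPKM with LPS. Each group other than control TLR4-WT therefore held libraries of both ranges. The last exon alone placed the same libraries in the lower and the upper range as the first exons did. For Tlr13 and Cd180 the sums of both ends were equal in every library. The ends may thus carry the values of the same transcripts, and their match is no independent check of the split. The cause of the split was not tested. The log2 difference after LPS was -1.05 in TLR4-WT (95% interval -1.92 to -0.17, limma adjusted p = 0.0470), 0.13 in TLR4-K730R (-0.74 to 1.01, adjusted p = 0.808) and 0.52 in TLR4-K810R (-0.35 to 1.40, adjusted p = 0.331), and under median-of-ratios scaling the values were -0.72, 0.54 and 0.79.

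**Figure D3:**
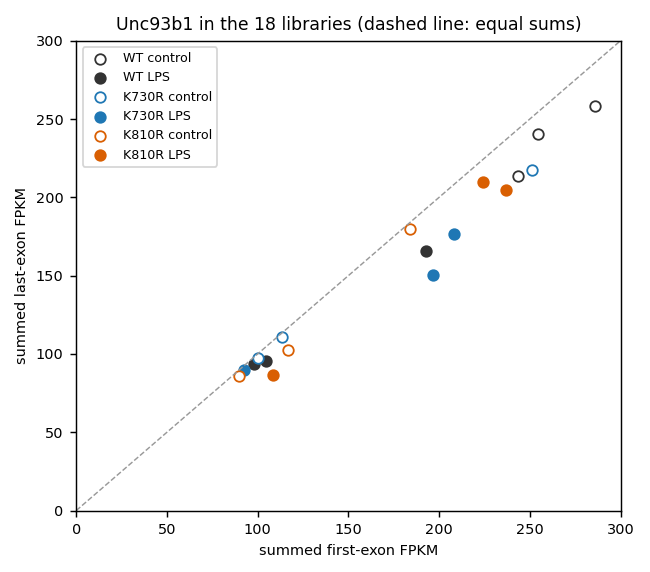
Summed last-exon FPKM of Unc93b1 against its summed first-exon FPKM in the 18 libraries, open circles for control and filled circles for LPS, with a dashed line of equal sums. The points lie near the line in a lower group of 8 libraries (89.8 to 117 FPKM by the larger sum) and an upper group of 10 libraries (184 to 286 FPKM), and only control TLR4-WT has all 3 of its libraries in one of them. Both sums may carry the values of the same transcripts, so their closeness is no independent check.

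Cd180 (ENSMUSG00000021624, chr13:102693558-102739629) was not called in any comparison either. TLR4-WT libraries were at 64.6, 43.6 and 62.9 FPKM without and 96.9, 105 and 49.2 FPKM with LPS, and TLR4-K810R libraries at 65.1, 44.1 and 68.7 FPKM and 46.6, 58.8 and 57.6 FPKM. Control TLR4-K730R was lowest, at 32.5, 39.3 and 23.6 FPKM, with all 3 libraries below the controls of the other genotypes, and its LPS libraries spread over 61.2, 26.6 and 78.8 FPKM. The log2 difference of control TLR4-K730R from TLR4-WT was -0.83 (95% interval -1.58 to -0.08, limma adjusted p = 0.579). The differences after LPS were 0.49, 0.68 and -0.11, and under median-of-ratios scaling 0.82, 1.08 and 0.16, none of them called. Without LPS replicate 2 of TLR4-K730R the unscaled value in TLR4-K730R became 1.13 and was called (limma adjusted p = 0.00766). Ly86, named here after its values were seen because its product is the partner of CD180, had log2 differences after LPS of 0.54, -0.07 and -0.50, and of 0.86, 0.33 and -0.24 under median-of-ratios scaling, none of them called. Cd180 shares 3.03% of its 50-base words with Mast4, which overlaps it on the other strand, and whether counting used strand is not given in the sources used here.

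Whether the TLR4 mutations changed these genes was asked with and without LPS. None of the 10 genes was called by limma in control TLR4-K730R or TLR4-K810R against TLR4-WT, where 0.268% and 1.58% of all tested genes were called, and 2 genes each had an unadjusted p below 0.05 (Cd180 and Tlr2, and Tlr3 and Unc93b1), as had 7.70% and 14.1% of all tested genes. With LPS again 0 of 10 were called, where 0% and 0.134% of all tested genes were called. An unadjusted p below 0.05 was reached by 0 and 3 of the 10 genes in TLR4-K730R and TLR4-K810R, and by 7.69% (746 genes) and 21.8% of all tested genes. The 3 were Tlr3 (log2 difference -1.40, 95% interval -2.30 to -0.51, limma adjusted p = 0.0801), Tlr7 (-1.26, -2.17 to -0.35, adjusted p = 0.113) and Tlr9 (-0.83, -1.55 to -0.11, adjusted p = 0.177), while the endosomal receptors Tlr8 (-0.20, -0.71 to 0.31) and Tlr13 (-0.08, -0.35 to 0.19) had smaller values. In that comparison the median difference of all genes was 0.11 and -0.01 after median-of-ratios scaling, under which the values of Tlr3, Tlr7 and Tlr9 were -1.55, -1.41 and -0.94 and again not called. Tlr3 reached 4.47 FPKM or less in TLR4-K810R and 4.87 FPKM or more in TLR4-WT, and Tlr7 reached 23.4 FPKM or less against 27.3 FPKM or more, so that neither overlapped, while Tlr9 lay at 0.347 to 0.492 FPKM against 0.368 to 2.42 FPKM. Tlr2 with LPS differed from TLR4-WT by 0.24 in TLR4-K730R (-0.08 to 0.56) and by 0.03 in TLR4-K810R (-0.29 to 0.35). Both mutants are set against the same TLR4-WT libraries.

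The test of the LPS responses themselves called 0 of the 10 genes by limma, where 0.0412% of all tested genes differed between TLR4-K730R and TLR4-WT and 0.124% between TLR4-K810R and TLR4-WT. No gene in the first and 1 gene in the second, Unc93b1, had an unadjusted p below 0.05, as had 7.02% and 13.2% of all tested genes. Unc93b1 differed by 1.57 on the log2 scale in TLR4-K810R (95% interval 0.33 to 2.80, limma adjusted p = 0.264) and by 1.18 in TLR4-K730R (-0.05 to 2.42, adjusted p = 0.725). The response of Tlr2 differed by -0.12 (-0.57 to 0.34) in TLR4-K730R and 0.30 (-0.15 to 0.75) in TLR4-K810R, and that of Tlr13 by -0.11 (-0.49 to 0.27) and -0.10 (-0.48 to 0.28). These were the narrowest intervals of the 10 genes.

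**Figure D4:**
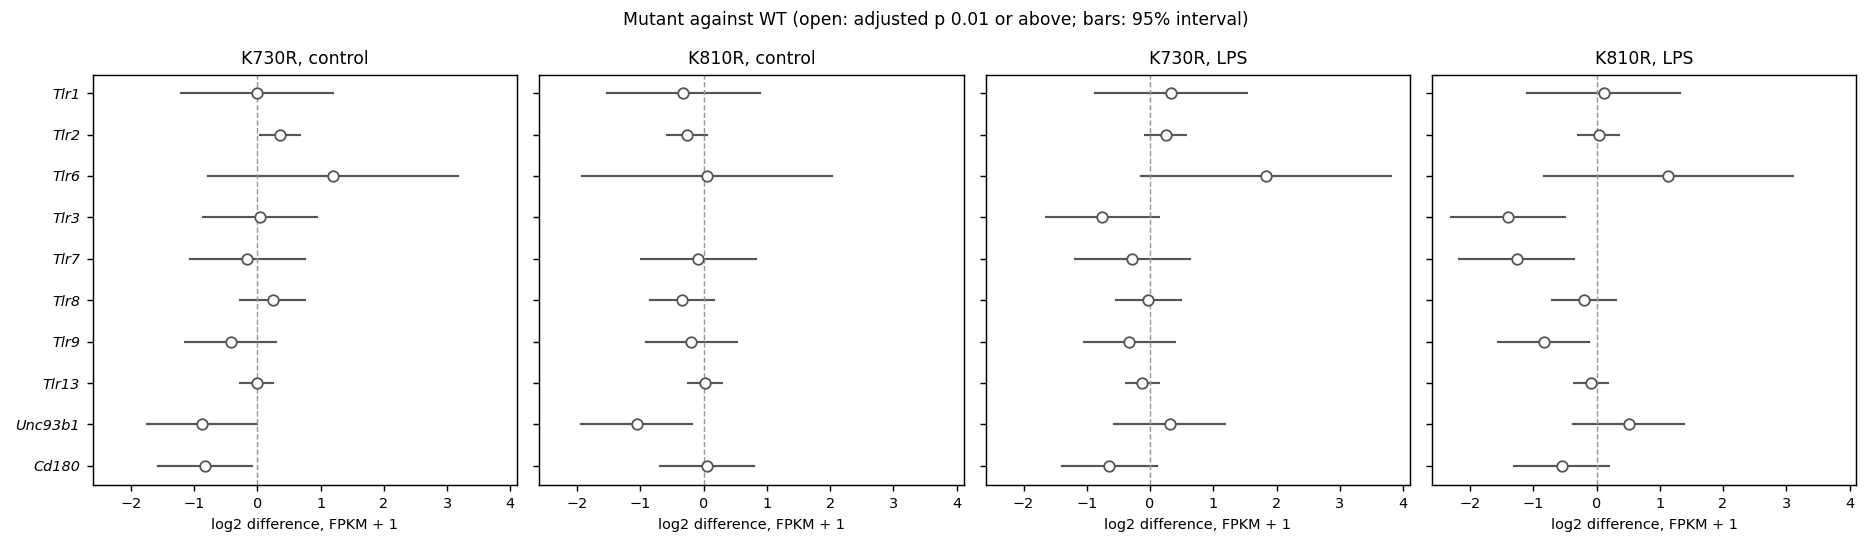
Log2 difference between each mutant and TLR4-WT on the FPKM + 1 scale for each gene, in control and in LPS libraries, with 95% intervals from limma (3 libraries per group). No difference was called, the intervals of Tlr2 and Tlr13 are the narrowest and that of Tlr6 the widest, and Tlr3 is not drawn for control TLR4-K810R, whose libraries are listed at 0.

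The listed exon ends showed which transcripts carried these values. Tlr7 had a pair of first exons, and the one at chrX:167330437-167330528 carried the difference, with 2.50 to 13.6 FPKM in control and 7.77 to 41.2 FPKM in LPS libraries, while the other, at chrX:167330401-167330497, stayed between 0.0755 and 2.35 FPKM. Tlr3 had 3 first exons, and the most upstream, at chr8:45410453-45410619, was listed in 4 of 9 control and 9 of 9 LPS libraries. In TLR4-K810R with LPS it was the only one listed, whereas the exon at chr8:45410300-45410380 carried 57.2% and 14.2% of the first-exon FPKM in 2 of the TLR4-WT libraries with LPS and 51.7%, 47.1% and 36.9% in those of TLR4-K730R. This exon was at 1.46 to 5.63 FPKM where it was listed with LPS, and its use was not tested.

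The first exon that carried most of Tlr8 differed between libraries. The exon at chrX:167264152-167264329, at the annotated start of the gene, carried all of the first-exon FPKM in 10 of 18 libraries and 19.0% to 91.5% in the others. In LPS replicate 3 of TLR4-WT, LPS replicate 3 of TLR4-K730R and LPS replicate 2 of TLR4-K810R, the exon at chrX:167263749-167263788 carried 67.3%, 80.9% and 72.5%. In control libraries it was listed once, at 20.4% in TLR4-WT replicate 1. The exon at chrX:167260373-167260465 was listed in 4 LPS libraries and 1 control library. Each LPS group also held a library in which the annotated first exon carried 86.0% or more, so the groups overlapped. Cd180 in turn had 1 first exon and 6 last exons, and of these the exon at chr13:102704705-102706955 carried most, at 16.1 to 92.2 FPKM.

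**Figure D5:**
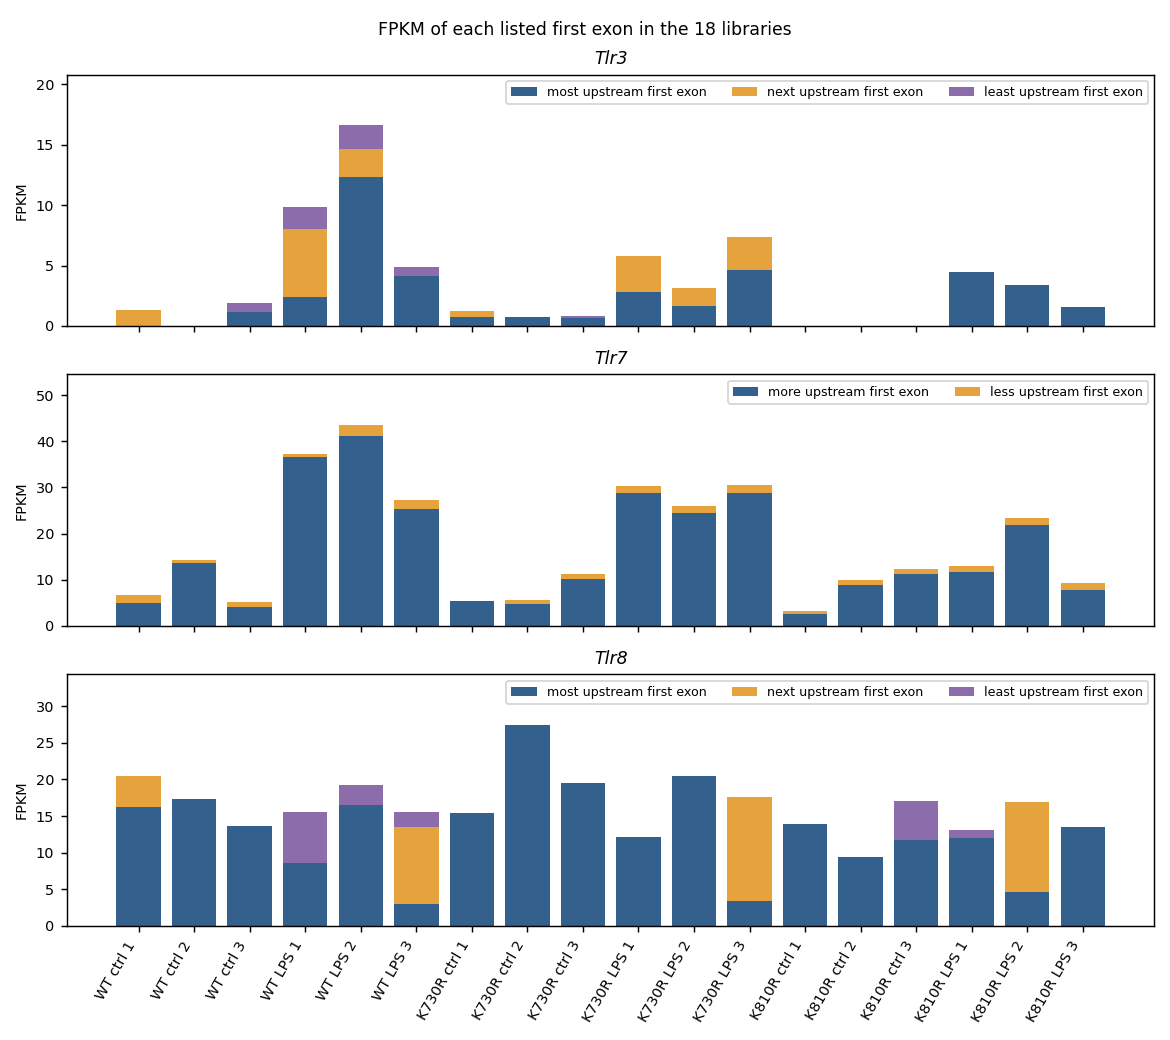
Stacked bars of the FPKM of each listed first exon of Tlr3, Tlr7 and Tlr8 in the 18 libraries, ordered by genotype and treatment, each panel with its own linear axis from 0. In Tlr7 the more upstream exon makes up 75.5% or more of each bar, in Tlr3 the middle exon is absent from TLR4-K810R, and in Tlr8 the middle exon carries 67.3% or more in 3 LPS libraries.

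Over the 18 libraries the genes with the pattern most like each member were found by Pearson's r on log2(FPKM + 1) among 5700 other genes, as a description, since all libraries share the LPS contrast. Tlr2 ran with the chemokine genes Cxcl2 (r = 0.993) and Cxcl3 (0.992), and Tlr13 with Myo1e (0.988) and Dennd4c (0.987). Tlr7 ran with Tmem170b (0.932) and Pla2g4a (0.911), Tlr3 with Tbc1d9 (0.929) and N4bp1 (0.927), and Tlr9 with Gadd45g (0.909) and Abcg1 (0.906). The others had weaker partners, with r from 0.644 to 0.804, among them Pde7b for Cd180 and Nisch for Unc93b1. Among the members, Tlr2 and Tlr13 had r = -0.951 over the 18 libraries and 0.178 within groups, after the group means were taken out.

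Of 47 further genes of the pathway, 39 had a value and 36 were tested. After LPS 8 rose and 13 fell in TLR4-WT, TLR4-K730R had 7 that rose and 12 that fell, TLR4-K810R had 7 and 10, where the shares of all tested genes called higher and lower were 10.4% and 23.9%, 9.32% and 26.5%, and 9.08% and 19.7%. With median-of-ratios scaling the counts were 11 and 9, 12 and 2, and 10 and 4, with no sign changed among the genes called first, beside 15.4% and 14.2%, 15.3% and 13.5%, and 12.3% and 11.7% of all genes. Of 13 tested adaptors and kinases below the receptors 6, 5 and 5 were called higher in TLR4-WT, TLR4-K730R and TLR4-K810R, and under median-of-ratios scaling 8, 8 and 7. Irak4, a kinase bound to MyD88, was called lower in TLR4-K730R (-0.58, limma adjusted p = 0.00221), and not after scaling (-0.20, 0.301). Myd88, the adaptor of all members with a TIR domain but TLR3, rose by 1.46, 1.65 and 1.47 on the log2 scale, and Ikbke, a kinase of the interferon branch, by 1.52, 1.16 and 1.31. Irf7, the transcription factor through which TLR7 and TLR9 induce interferon, rose by 2.94, 5.96 and 5.47, and in control libraries it was called lower in TLR4-K730R (-3.03, limma adjusted p = 0.000371) and TLR4-K810R (-2.75, 0.000388) than in TLR4-WT. It was the only one of the 36 genes called between genotypes.

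Of 7 tested folding and trafficking factors 5, 3 and 4 were called lower and none higher in TLR4-WT, TLR4-K730R and TLR4-K810R. Of all tested genes 23.9%, 26.5% and 19.7% were called lower, and 14.2%, 13.5% and 11.7% under median-of-ratios scaling. Under median-of-ratios scaling Rab7b lost its call in all 3 genotypes, Cnpy3 and Nrros in TLR4-K730R, and Cnpy4 and Slc15a4 in TLR4-K810R, while Ap3b1, a subunit of an endosomal sorting complex, was called higher in TLR4-K730R (0.63, limma adjusted p = 0.00932) and TLR4-K810R (0.66, 0.00798). In TLR4-K730R no factor of this list was then called lower. Cnpy3, a folding partner of the receptors, differed by -1.19 in TLR4-WT, by -0.82 in TLR4-K730R and, not called, by -0.30 in TLR4-K810R (limma adjusted p = 0.240). Nrros, a negative regulator of Toll-like receptors in the endoplasmic reticulum, differed by -1.31, -1.15 and -1.28. Of 7 tested endosomal proteases and nucleases 4 were called lower in each genotype. These were Lgmn, which cleaves endosomal receptors (-1.47, -1.58 and -1.61), Ctsb (-0.61, -0.68 and -0.63), and the exonucleases Pld3 (-1.08, -0.79 and -0.61) and Pld4 (-1.11, -1.002 and -1.36). Under median-of-ratios scaling Lgmn kept its call in all 3, Ctsb in none, Pld3 in TLR4-WT, and Pld4 in TLR4-WT and TLR4-K810R, and Ctsk, another endosomal protease, was called higher in TLR4-K730R (0.62, limma adjusted p = 0.00465). Ap3b1, Ctsk and Ly96 are named after their values were seen. Of 5 tested inhibitors Irak3 (2.61, 2.40 and 2.73) and Tnfaip3 (2.38, 2.33 and 2.32) were called higher in every genotype. Inpp5d, a lipid phosphatase, was called lower in every genotype (-0.46, -0.68 and -0.61) and Tollip in TLR4-WT (-0.48) and TLR4-K730R (-0.42), and neither was called under median-of-ratios scaling. In 4 tested receptors and partners outside the 10 genes, Tlr4 fell by 1.03, 0.999 and 1.23 on the log2 scale and Cd36, a partner of TLR2, was called lower in TLR4-WT (-1.16) and TLR4-K730R (-0.98), the second of which was -0.57 and not called under median-of-ratios scaling (limma adjusted p = 0.0224). Under that scaling Ly96, the partner of TLR4, was called higher in TLR4-WT (1.30, limma adjusted p = 0.00301).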

How the data were processed

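RNA-seq libraries (18 in 6 groups, taken from the labels) came from macrophages of 3 Tlr4 genotypes with or without LPS. The deposited values are FPKM, which the authors normalized for length and fragments, of transcript events of 20 kinds, with 80071 to 90401 rows per library. The aligner and counting tool are not given in the sources used here. The processing notes name hg18, a human build, while the coordinates match GRCm38, with 14051 of 14063 Ensembl numbers in GENCODE M21. First-exon and last-exon events were summed where they overlapped the annotated gene on its own strand, which dropped 6.24% of their FPKM, and the larger sum was used. Depth is unknown, so no interval for counting error could be given.

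Tests used limma 3.58.1 in R 4.3.3 (trend, pseudocount 1, all 6 groups in one fit, Benjamini-Hochberg over 9707 genes for each of 9 comparisons) and were checked on simulated data. Values were summed with Python 3.11.15 and pandas 2.3.3. Members, lists, motifs and the rule for named genes (the 10 genes, Tlr4, called genes of the lists, and 2 alike genes per member) were chosen with earlier results of these data known. Alternatives covered pseudocount, filters, scaling, trend, array weights, replicate block, groups fitted, gene values, threshold and left-out libraries.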

Additional observations from a re-analysis of the deposited data

Results flagged for a closer look

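Of events left out of the gene values, those on the strand opposite to a member were listed above their control level in LPS libraries for 2 genes. A transcript opposite to Tlr2 was listed at 4.72 FPKM in LPS replicate 1 of TLR4-WT and in no other library. Transcripts opposite to Tlr1 were listed in 3 of 9 LPS libraries, at up to 1.37 FPKM, and in 1 of 9 control libraries at 0.568 FPKM. Other events left out went the other way. A transcript opposite to Unc93b1 was listed only in control replicate 2 of TLR4-K730R, at 0.541 FPKM. In that library alone a last exon of Tlr8 outside its annotated span was listed, at 7.75 FPKM.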

How the results depend on the processing

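The number of members called kept within 1.5 times of the value reported in every comparison and under every alternative run. It was 3 to 5 for LPS in TLR4-WT, 3 to 5 in TLR4-K730R and 2 to 4 in TLR4-K810R, and 0 in all 6 comparisons of the mutants with TLR4-WT, at a threshold of 0.05 too. No called difference changed sign. With first exons or last exons alone only 9 and 7 members could be tested, and Tlr2 or Tlr3 dropped out. At a threshold of 0.05 Unc93b1 in TLR4-WT (adjusted p = 0.0470) and Tlr9 in TLR4-K810R were added. Tlr2 and Tlr13 kept their calls in each fit that could test them, and Tlr7 in TLR4-WT and TLR4-K730R did so too. Replicate numbers did not pair the libraries (45 pairs with the same number, r from -0.32 to 0.099, 0 of 18 libraries correlating best with their own number), and the fit with a replicate block called 4, 4 and 3 members for LPS and changed no call.

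The main limits are the unknown depth, the groups of 3 libraries, and gene values that rest on one exon end for Tlr1, Tlr2, Tlr3 and Tlr8. For Tlr1 and Tlr6 the 95% intervals after LPS reach past a 2-fold change in every genotype.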
